A study of Mus musculus with 12 samples.

Results

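Cytosolic sulfotransferases are the enzymes that attach a sulfonate group to small molecules in the cytosol. Of 25514 genes in the deposited counts, 8 of this family are described here: Sult1d1, Sult1a1, Sult1c2, Sult1b1, Sult1e1, Sult2b1, Sult4a1 and Sult5a1. They were chosen by their measured values, because Sult1d1 and Sult1a1 had been seen to be much lower after H2O2 in serum-free medium. The H2O2 changes of the members are therefore given as a description without a test, and tests are given for the comparison of genotypes. The other 13 cytosolic sulfotransferases on a fixed list (the Sult2a, Sult3a and Sult6b genes and Sult1c1) had between 0 and 10 counts in all 12 libraries together, and none of them could be tested.

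RNA was sequenced from conditionally immortalized proximal tubule (PT) cells, with 3 libraries in each of 4 groups. TβRII flox/flox PT cells came from male mice that carried floxed Tgfbr2, the gene of the TGF-β type II receptor, and, from the Immorto-mouse, a T antigen that is active at low temperature. TβRII-/- PT cells were made from such cells with adenoviral Cre in culture, so each genotype is 1 cell line and the deletion cannot be told apart from other differences between the lines. All cells had been grown with interferon gamma at the permissive temperature and then moved to 37 °C without it. The untreated cells of both genotypes stayed in complete medium with serum, hydrocortisone, insulin, transferrin, selenium and T3. The other cells of both genotypes received H2O2 in serum-free medium for 24 h, and the methods describe serum starvation before H2O2 was added as well. H2O2 cannot be told apart from the loss of serum and hormones. The labels give the dose of H2O2 as 200 mM, whereas the methods state the same figure in μM. The methods speak of independent experiments or biological replicates for work in vitro in general, and the labels do not tie these libraries to separate cultures, so that p-values may measure only technical spread.

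Sulfotransferases of this family take their sulfonate from PAPS (3′-phosphoadenosine 5′-phosphosulfate), which is made in the cell from sulfate and ATP. Sulfation makes phenols, catecholamines, thyroid hormones and steroids more soluble in water, usually ends their action on receptors and lets them be excreted. The proximal tubule takes sulfate back from the filtrate and secretes sulfated conjugates into the urine. The enzymes of subfamily 1 act mostly on phenols, and those of subfamily 2 act on hydroxysteroids.

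Libraries held between 15870155 and 20857618 counts when 1 transcript stood for each gene, and 12971 genes had enough counts to be tested. A count of 0 in a library allows up to 3 counts, or between 0.136 and 0.198 CPM (counts scaled to a fixed library size). Tgfbr2 itself was at 7562 to 9248 normalized counts in untreated TβRII flox/flox and at 6358 to 6782 in untreated TβRII-/- cells, and at 13275 to 13918 and 7116 to 7311 with H2O2. It is counted over its whole transcript, so that a deletion of part of it need not lower the count. Of 20 PT markers, 7 had at most 3 counts in all libraries together, among them the organic anion transporters Slc22a6 and Slc22a8, and only 10 had enough counts to be tested. The endocytosis receptor Lrp2 and the water channel Aqp1 were abundant. The PT list summed to 1360 to 1713 CPM in untreated TβRII flox/flox, 1820 to 1978 with H2O2, 937.7 to 1001 in untreated TβRII-/- cells and 948.8 to 1027 with H2O2. Of the 10 tested, 1 was higher and 7 lower in untreated TβRII-/- against TβRII flox/flox cells, beside 16.3% and 11.8% of all genes tested. With H2O2 in TβRII flox/flox cells 2 were higher, among them Aqp1 (means of 7103 normalized counts untreated and 14610 with H2O2), and 3 lower, namely Keg1, Ggt1 and Slc4a4. Over all genes tested 5.68% were higher and 2.56% lower with H2O2 in these cells. The label of PT cell thus rests on part of the marker list in these cultures.

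Only 4 of the 8 members passed the filter on low counts. These were Sult1d1, Sult1a1, Sult1c2 and Sult2b1. Sult1b1 (84 counts in all libraries), Sult5a1 (10 counts), Sult1e1 (2 counts) and Sult4a1 (0 counts) did not pass. Sult2b1 passed the filter through the TβRII-/- libraries, where it was high. The coding sequences of the 8 members were between 54.5% and 66.6% identical in pairs over the aligned bases, and the longest run of bases that any pair of their transcripts shared was 20. A read longer than that could match 1 member only.

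The sequences before the start sites of 3 members are shown because these members differ in their pattern. Sult1d1 and Sult1a1 were lower with H2O2, and Sult2b1 differed between genotypes with a ratio near 1 with H2O2. They come from RefSeq on GRCm38.p6, are written 5′ to 3′ on the strand of the gene, which is the minus strand in each case, and leave out stretches that are also found in a spliced transcript. Capitals mark matches to the motifs named below, of which the Sult1d1 stretch holds none.
Sult1d1, chr5:87569075-87569256: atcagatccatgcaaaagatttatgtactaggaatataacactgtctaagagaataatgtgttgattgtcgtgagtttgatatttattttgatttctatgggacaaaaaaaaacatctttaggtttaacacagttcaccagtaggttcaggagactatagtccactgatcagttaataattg
Sult1a1, chr7:126676419-126676668: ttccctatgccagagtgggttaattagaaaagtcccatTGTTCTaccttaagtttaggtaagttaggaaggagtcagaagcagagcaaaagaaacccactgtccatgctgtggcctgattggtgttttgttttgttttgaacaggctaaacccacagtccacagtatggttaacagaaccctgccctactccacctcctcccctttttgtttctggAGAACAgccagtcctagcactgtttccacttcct
Sult2b1, chr7:45742479-45742630: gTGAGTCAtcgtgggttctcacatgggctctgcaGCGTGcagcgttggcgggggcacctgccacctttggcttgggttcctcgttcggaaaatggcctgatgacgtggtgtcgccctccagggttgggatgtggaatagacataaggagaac

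The motifs were searched on both strands in the 250 bases before the start of 32851 RefSeq promoters, and 7 members had 9 such promoters. In Sult1a1 a pair of glucocorticoid receptor half-sites (AGAACA, or TGTTCT on the other strand) was present, a motif in 16.1% of windows that was also found before the listed start of Sult1c2 and before 1 of the starts of Sult1b1. All 250 bases of the Sult1c2 window are also found in a spliced transcript of Sult1c2, so that this match lies in annotated transcript sequence. Sult1d1 had the core of the aryl hydrocarbon receptor motif (GCGTG, in 28.2% of windows) closer to its start, outside the stretch printed above and in bases also found in a spliced transcript of Sult1d1. The downstream start of Sult2b1 had the same core, as had 1 start of Sult1b1, and an AP-1 site (TGACTCA, or TGAGTCA on the other strand), which 4.46% of windows held. The antioxidant response core (TGACNNNGC, in 10.2% of windows), the E-box (CACGTG, 6.02%), the TATA box (TATAAA, 12.4%) and the C/EBP motif (TTGCNNAA, 9.56%) matched in none of the 9 member windows. A nuclear receptor half-site (AGGTCA, in 14% of windows) was found before Sult1e1 and before the other start of Sult1b1. No motif was found before the upstream start of Sult2b1, which is not printed above, or before Sult5a1. The Sult1a1 start used here lies inside the annotated gene, which reaches to chr7:126690443. All matches describe the letters only, and no factor's binding was measured.

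Sult1d1, which sulfates dopamine and other catechols, was the most abundant member per transcript length in both untreated groups, and it had the widest range of counts. Its deposited counts were 176, 226 and 259 in untreated TβRII flox/flox cells and 5, 1 and 1 with H2O2. In TβRII-/- PT cells they were 7106, 8889 and 9261 untreated and 936, 1329 and 889 with H2O2. No pair of groups overlapped, and every TβRII-/- library, treated or not, lay above every TβRII flox/flox library. After scaling to a common library size the means were 238.4 ± 48.0 and 2.42 ± 2.30 in TβRII flox/flox and 8301 ± 764 and 931 ± 99.2 in TβRII-/- cells (SD, n = 3).

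Sult1d1 rose in TβRII-/- against TβRII flox/flox PT cells without treatment by 5.12 ± 0.10 on the log2 scale (SE), a 34.9-fold difference with an adjusted p of 1.90e-28 by edgeR's quasi-likelihood test. With H2O2 the difference was 8.49 ± 0.23 (adjusted p = 4.62e-25, edgeR). In that comparison the TβRII flox/flox group held 7 counts in all, and the ratio of counts was 379 with a 95% counting interval from 184 to 943. The libraries of both comparisons also entered the H2O2 changes for which the members were chosen. These p-values are therefore not independent of that choice. As a description, Sult1d1 was 96.0-fold lower with H2O2 in TβRII flox/flox cells (counting interval 46.4 to 240) and 8.87-fold lower in TβRII-/- cells (8.55 to 9.21). Replicate 1 of the H2O2-treated TβRII flox/flox cells held 5 of the 7 counts. Without it the H2O2 change in these cells was -7.61 instead of -6.52 (log2), and the genotype difference with H2O2 was 9.56. Intervals of this kind cover counting error only.

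Sult1a1, the main phenol sulfotransferase of the family, was a low-count gene in these cells. Its counts were 25, 29 and 38 in untreated TβRII flox/flox cells and 1 in each library with H2O2. In TβRII-/- PT cells they were 21, 24 and 18 untreated and 3, 0 and 0 with H2O2. The treated and untreated libraries did not overlap in either genotype. The ratio with H2O2 was 0.0321 in TβRII flox/flox (counting interval 0.00649 to 0.0967) and 0.0430 in TβRII-/- cells (0.00863 to 0.131), where replicate 1 held all 3 counts of the treated group.

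Untreated TβRII-/- libraries were all below the untreated TβRII flox/flox libraries in normalized counts of Sult1a1, at 17.2 to 23.2 against 26.3 to 40.9. The change of -0.67 ± 0.31 (log2, SE) did not pass the test (adjusted p = 0.0567, edgeR). It passed without replicate 1 of untreated TβRII flox/flox cells (adjusted p = 0.0380) and without replicate 1 of H2O2-treated TβRII-/- cells (0.0489), and was furthest from passing without replicate 3 of untreated TβRII flox/flox cells (-0.50, adjusted p = 0.228, all by edgeR). The same libraries entered the H2O2 changes of Sult1a1 for which the members were chosen, so these p-values are not independent of that choice. With H2O2 both genotypes held 3 counts in all, so that no difference was detectable at this depth. The exons of Sult1a1 overlap those of Sgf29 on the other strand by 223 bases, and although the libraries were made with a stranded kit, the strand setting of the counting is not given in the sources used here. Sgf29 held between 173 and 254 normalized counts in every library, including those in which Sult1a1 was at 0 or 1.

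**Figure D1:**
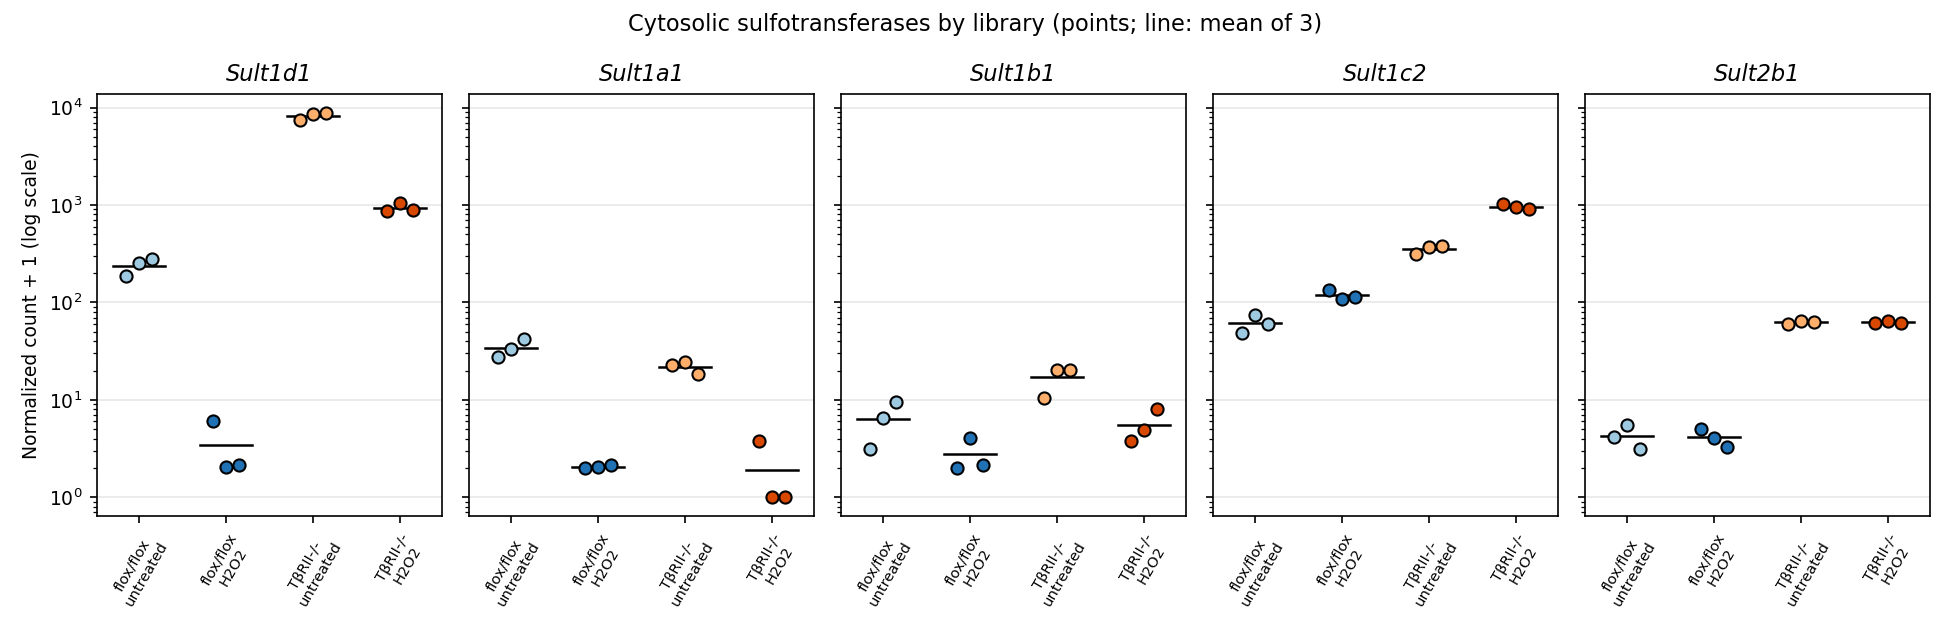
Normalized counts plus 1 (vertical log axis) of 5 members in each of the 12 libraries, grouped by genotype and treatment; points are libraries and lines the means of 3. Sult1d1 and Sult1a1 are lower with H2O2 in both genotypes, Sult1c2 is higher with H2O2, and Sult2b1 differs between genotypes.

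Sult1c2 is another enzyme of subfamily 1 that acts on phenols. Its pattern with H2O2 was the opposite of that of Sult1d1. Its counts were 45, 66 and 55 in untreated TβRII flox/flox cells and 131, 104 and 98 with H2O2. In TβRII-/- PT cells they were 297, 385 and 395 untreated and 1109, 1202 and 916 with H2O2. The 4 groups did not overlap, and TβRII flox/flox untreated, TβRII flox/flox with H2O2, TβRII-/- untreated and TβRII-/- with H2O2 followed each other in rising order. Sult1c2 rose in TβRII-/- PT cells by 2.57 ± 0.13 (log2, SE) untreated (5.92-fold, adjusted p = 8.95e-18, edgeR) and by 3.03 ± 0.10 with H2O2 (8.15-fold, adjusted p = 2.31e-22, edgeR). As a description, it was 1.97-fold higher with H2O2 in TβRII flox/flox (counting interval 1.63 to 2.39) and 2.71-fold higher in TβRII-/- cells (2.52 to 2.90).

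Sult1b1, which sulfates thyroid hormones, lies beside Sult1d1 on chromosome 5. Its counts were 2, 5 and 8 in untreated TβRII flox/flox cells and 1, 3 and 1 with H2O2. They were 9, 20 and 20 in untreated TβRII-/- PT cells and 3, 5 and 7 with H2O2. Untreated TβRII-/- libraries were above the untreated TβRII flox/flox libraries, with a ratio of 2.99 (counting interval 1.65 to 5.75). It was too low for the filter in the main test, and in the 12 alternatives that kept it, 11 called it higher in untreated TβRII-/- cells and none called it with H2O2 (edgeR, adjusted p 0.00212 to 0.0509 untreated and 0.105 to 0.403 with H2O2). Most of these alternatives left out 1 library and shared nearly all their data, and its counts were highest in the untreated TβRII-/- libraries. Their calls are therefore not separate support and are given for the record only. In TβRII-/- cells the ratio with H2O2 was 0.276 (0.144 to 0.501), and in TβRII flox/flox cells it was 0.328 (0.0932 to 0.949), where the libraries overlapped. Sult1e1, the estrogen sulfotransferase, on the other side of Sult1d1, had 1 count in each of 2 untreated TβRII-/- libraries and 0 elsewhere.

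Sult2b1, which sulfates cholesterol and other hydroxysteroids, separated the genotypes, with overlapping treatments. Its counts were 3, 4 and 2 in untreated and 4, 3 and 2 in H2O2-treated TβRII flox/flox PT cells. They were 56, 66 and 64 in untreated and 66, 81 and 61 in H2O2-treated TβRII-/- PT cells. The genotypes did not overlap in either condition, and the treatments overlapped in both genotypes. Sult2b1 rose in TβRII-/- PT cells by 4.19 ± 0.34 (log2, SE) untreated (adjusted p = 1.29e-12, edgeR) and by 4.23 ± 0.33 with H2O2 (adjusted p = 7.24e-13, edgeR). It had entered this test through the TβRII-/- libraries, where it was high, so both p-values are given for the record only. With no filter on low counts the changes were 4.18 and 4.23. The ratio of counts was 18.9 (counting interval 9.76 to 42.1) and 19.4 (10.04 to 43.1). With H2O2 its ratio was 1.01 in TβRII-/- cells (0.824 to 1.24) and 0.983 in TβRII flox/flox cells, where 9 counts against 9 left an interval from 0.346 to 2.80.

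Sult2b1 has 2 annotated starts. A short transcript of the downstream start had 1 count in total over the 6 TβRII flox/flox libraries and 1, 4, 4, 6, 7 and 4 counts in the TβRII-/- libraries (untreated, then H2O2). These counts are too few to tell which start was used more. Sult2b1 exons overlap Lmtk3 on the other strand by 197 bases, and Lmtk3 had a mean of 464 normalized counts in untreated TβRII flox/flox cells, where Sult2b1 held 2 to 4 counts. Lmtk3 was itself called higher in untreated TβRII-/- cells, at a mean of 708.5 (log2 change 0.61). Its part in the counts of Sult2b1 was not tested. Sult4a1, a brain sulfotransferase, had no count in any library, and Sult5a1 had 0 to 3.

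**Figure D2:**
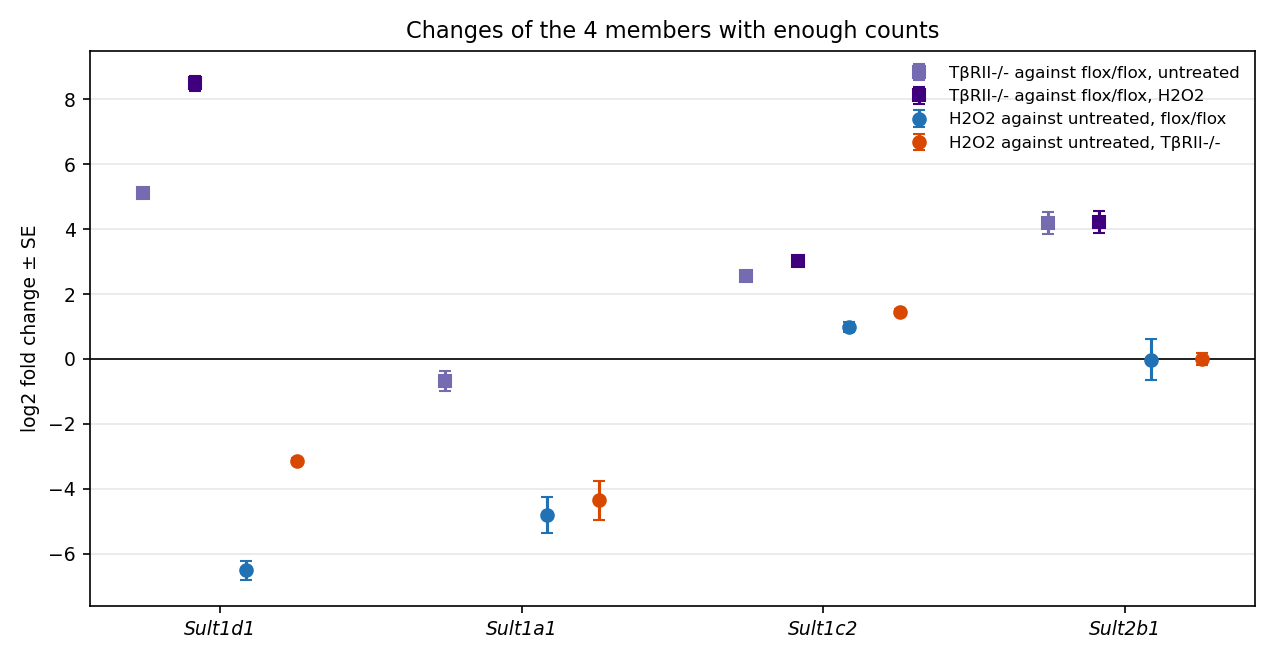
Log2 fold changes with SE (vertical axis) of the 4 members with enough counts, for the genotype comparisons (squares) and for H2O2 against untreated (circles, description only). The genotype change of Sult1a1 with H2O2 is not drawn because both groups held 3 counts; Sult1d1, Sult1c2 and Sult2b1 lie above 0 in both genotype comparisons.

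In both genotype comparisons 3 of the 4 members tested were called higher, at an adjusted p under 0.05 and a fold change of at least 1.5. Over all 12971 genes, 28.0% were called untreated, 16.3% higher and 11.8% lower. With H2O2 30.7% were called, 17.3% higher and 13.4% lower. Because a member could pass the filter through the group in which it was high, the count over those that passed is given for the record only. With H2O2 against untreated, 8.24% of all genes were called in TβRII flox/flox (5.68% higher, 2.56% lower) and 8.33% in TβRII-/- PT cells (4.56% higher, 3.76% lower). Nothing is read from these shares about the members, since the same contrasts chose them.

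Levels of different genes can be compared only per transcript length. On the scale of CPM per kb of transcript, the 8 members summed to 8.69 ± 1.69 (SD, n = 3) in untreated TβRII flox/flox cells, 3.07 ± 0.37 with H2O2, 205.6 ± 18.9 in untreated TβRII-/- cells and 46.8 ± 2.29 with H2O2. Sult1d1 made up 64.0% ± 1.08 of this sum in untreated TβRII flox/flox cells and 94.3% ± 0.13 in untreated TβRII-/- cells. With H2O2 its share was 1.73% ± 1.45 in TβRII flox/flox and 46.5% ± 3.28 in TβRII-/- cells. The share of Sult1c2 was 16.6% ± 2.34 and 91.7% ± 1.97 in TβRII flox/flox cells, untreated and with H2O2, and 4.11% ± 0.07 and 49.1% ± 3.17 in TβRII-/- cells. In H2O2-treated TβRII-/- cells the shares of Sult1d1 (43.2% to 49.8%) and Sult1c2 (46.0% to 52.4%) overlapped between libraries. Sult1a1 was at 16.8% ± 1.42 in untreated TβRII flox/flox cells, where its libraries overlapped with those of Sult1c2, and at 0.452% ± 0.09 in untreated TβRII-/- cells.

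**Figure D3:**
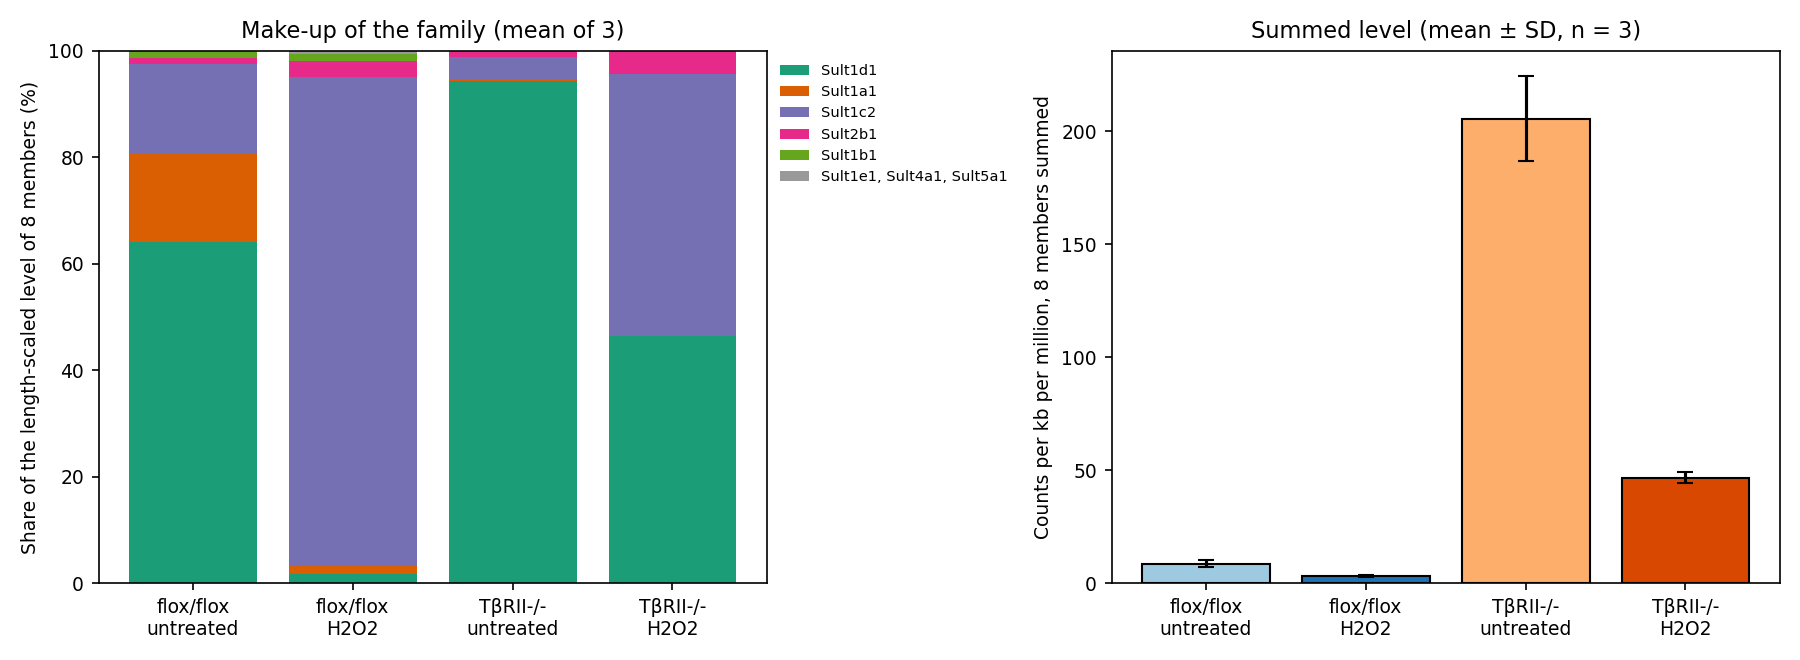
Left, share of each member in the length-scaled level of the family (percent, mean of 3 libraries) in each group; right, the summed level in CPM per kb (bars are means, error bars SD, n = 3). Sult1d1 holds 64.0% and 94.3% in the untreated groups, and Sult1c2 holds 91.7% in TβRII flox/flox cells with H2O2.

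The genes that supply and remove sulfonate groups were followed on 5 further lists. With the other cytosolic sulfotransferases these lists hold 90 genes, of which 50 could be tested. In TβRII-/- against TβRII flox/flox PT cells 12 were higher and 10 lower untreated, and 13 were higher and 14 lower with H2O2. That is 22 and 27 of 50 called, beside 28.0% and 30.7% of all genes tested. With H2O2 against untreated 7 were higher and 1 lower in TβRII flox/flox cells, and none higher and 3 lower in TβRII-/- cells. Over all genes tested 8.24% and 8.33% were called with H2O2 in the 2 genotypes. The median log2 change of the lists was 0.02 and -0.14 in the genotype comparisons and 0.22 and 0.01 in the H2O2 comparisons, beside 0.01, 0.02, 0.01 and 0.02 over all genes tested.

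Of the 6 genes for PAPS and its product PAP, Papss2, an enzyme that makes PAPS, was the one called lower in all 4 comparisons. It held 638.6, 557.5 and 731.3 normalized counts in untreated TβRII flox/flox cells and 351, 348 and 385 with H2O2. In TβRII-/- PT cells it held 215, 225 and 235.5 untreated and 134, 145 and 133 with H2O2. Papss2 fell in TβRII-/- cells by 1.51 (log2) untreated and by 1.39 with H2O2 (adjusted p = 1.74e-15 and 2.34e-13, edgeR). With H2O2 it fell by 0.83 in TβRII flox/flox and by 0.71 in TβRII-/- cells (adjusted p = 5.60e-09 and 4.82e-06, edgeR). The second PAPS synthase, Papss1, stayed between means of 1029 and 1219 and was called in no comparison, and neither were the Golgi transporters of PAPS, Slc35b2 and Slc35b3, or the cytosolic PAP phosphatase Bpnt1. The Golgi PAP phosphatase Bpnt2 fell in TβRII-/- cells by 0.66 untreated and by 0.93 with H2O2 (adjusted p = 1.44e-11 and 2.86e-15, edgeR).

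**Figure D4:**
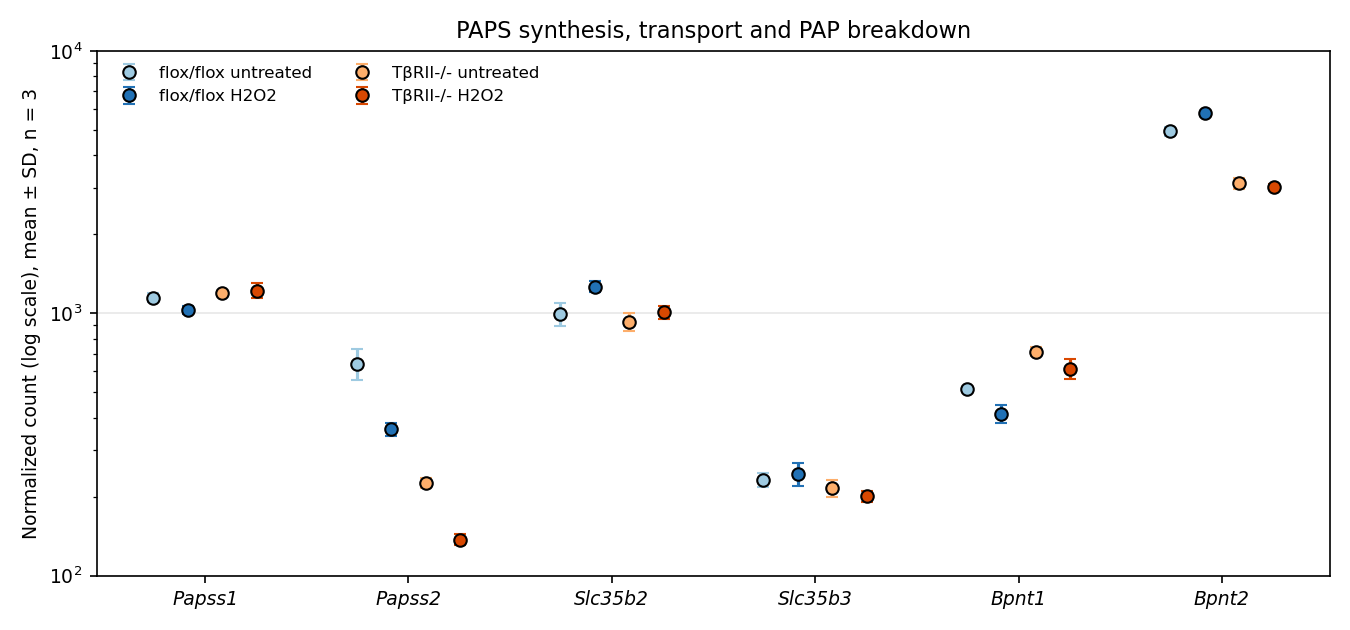
Normalized counts (vertical log axis, mean ± SD, n = 3 libraries) of the 6 genes for PAPS synthesis, transport and PAP breakdown in the 4 groups. Papss2 steps down from 642.5 in untreated TβRII flox/flox to 137 in H2O2-treated TβRII-/- cells, while Papss1 stays between 1029 and 1219.

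Among 10 sulfate transporters 3 could be tested. The transporters Slc26a2 (395 against 198 normalized counts) and Slc26a6 (96.5 against 56.1) were lower in untreated TβRII-/- PT cells, by -0.99 ± 0.10 and -0.78 ± 0.17 (log2, SE), and both were also lower with H2O2. Slc26a11 was higher with H2O2 in TβRII flox/flox cells (120 to 192, adjusted p = 0.000157, edgeR). Of 9 tested genes that make sulfate from cysteine, 4 were higher in untreated TβRII-/- PT cells, 6 with H2O2, and none lower. Over all genes tested 16.3% and 17.3% were higher in these comparisons. The largest change was that of Sqor, which oxidizes sulfide in mitochondria, at 23.3 normalized counts in untreated TβRII flox/flox and 187 in untreated TβRII-/- cells (log2 change 2.99 ± 0.20, adjusted p = 1.81e-14, edgeR). Tst, Got1 and Got2 rose by 0.92, 0.67 and 0.61. Suox, sulfite oxidase, fell with H2O2 in TβRII-/- cells by 0.60 (adjusted p = 8.61e-08, edgeR).

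The Golgi sulfotransferases, which act on glycans and share PAPS as the donor, changed in both directions. Of 22 tested, 8 were higher and 6 lower in untreated TβRII-/- PT cells, and 7 and 8 with H2O2. Shares over all genes tested were 16.3% higher and 11.8% lower untreated, and 17.3% and 13.4% with H2O2. Chst1, which sulfates keratan sulfate, was at 1.79 normalized counts in untreated TβRII flox/flox and at 764 in untreated TβRII-/- cells (log2 change 8.63 ± 0.22, adjusted p = 1.29e-25, edgeR). Chst1 passed the filter through the TβRII-/- libraries and was near 0 in TβRII flox/flox cells, so its p-value is given for the record only. Ust, which sulfates uronic acid in chondroitin and dermatan sulfate, fell from 110 to 14.5 (-2.91 ± 0.24, adjusted p = 2.01e-12, edgeR). With H2O2 3 of the 22, Chst9, Chst15 and Chst11, were higher in TβRII flox/flox cells, by 1.85, 0.91 and 0.63 (log2). Of 10 tested sulfatases and activators 3 were higher with H2O2 in TβRII flox/flox cells, among them the lysosomal Sgsh and Arsb, by 0.64 and 0.60 (log2). Over all genes tested 5.68% were higher with H2O2 in these cells.

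Of 29 transcription factors known to act on Sult genes 19 could be tested. Several factors that drive Sult genes in liver were nearly absent: Nr1i2 had no count, Nr1i3 13 counts and Hnf4a 2 counts in all libraries. In untreated TβRII-/- PT cells 9 were higher and 3 lower, among them Esr1 (1.87 ± 0.41), Rora (1.60 ± 0.09) and Nr3c2 (1.42 ± 0.14, log2, SE), all higher. Over all genes tested 16.3% were higher and 11.8% lower in this comparison. The glucocorticoid receptor Nr3c1 was at means of 1635 to 1867 and was called in no comparison. With H2O2 the vitamin D receptor Vdr fell in both genotypes, by 1.39 in TβRII flox/flox (182 to 69.3 normalized counts) and by 1.04 in TβRII-/- cells (115 to 55.4). Whether any of these bears on the members was not tested.

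Markers of epithelium, to which PT cells belong, and of other cells moved with some of the members. Of 11 epithelial markers 8 were higher in untreated TβRII-/- PT cells and none lower, with sums of 1723 to 1864 CPM in TβRII flox/flox and 3079 to 3259 in TβRII-/- cells. Over all genes tested 16.3% were higher and 11.8% lower. Cdh16, Pax8, Pax2 and Krt8 were abundant in untreated TβRII flox/flox cells, at means of 10310, 5223, 5105 and 1997 normalized counts. Pax2, Pax8 and Tjp1 were called in no comparison. Epcam (0.371 against 664 normalized counts), Cdh1 (1.80 against 1111) and Ocln (0.359 against 205) were nearly absent from untreated TβRII flox/flox cells, as Sult2b1 was. The endothelial receptor Kdr was lower with H2O2 in both genotypes and higher in TβRII-/- cells in both conditions, as Sult1d1 was, with means of 129 and 21.6 in TβRII flox/flox and 507 and 48.1 in TβRII-/- cells, untreated and with H2O2. It fell with H2O2 by 2.57 and by 3.41 (log2). It was the only one of 8 endothelial markers that could be tested. Pecam1 and Cdh5, which define endothelium, were near 0, and the list summed to 7.62 to 8.37, 1.61 to 1.98, 27.8 to 34.4 and 3.04 to 4.36 CPM in the same order. Summed fibroblast markers were between 0.949 and 5.55 CPM, and leukocyte markers between 7.995 and 16.4. Podocyte and distal nephron markers were at 2.95 to 4.76 in TβRII flox/flox and 27.6 to 33.2 in TβRII-/- cells, with Podxl at 36.2 against 520 normalized counts untreated. The part of these markers in the changes of the members was not tested, and fewer cells of a type cannot be told apart from less RNA per cell.

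On GRCm38.p6 Sult1b1 (chr5:87513327-87538195), Sult1d1 (chr5:87554650-87569006) and Sult1e1 (chr5:87575968-87591611) lie side by side on the minus strand between the Ugt2 and casein genes. Within 500 kb of Sult1d1 18 other genes were counted, and Csn3, kappa-casein, was the only one with enough counts to be tested. Csn3 had 0, 1.11 and 0 normalized counts in untreated TβRII flox/flox cells and 51.2, 43.6 and 45.0 in untreated TβRII-/- cells, and was called higher there by edgeR. It had passed the filter through the TβRII-/- libraries, so this call is given for the record only. With H2O2 Csn3 stood at 0 in all 3 TβRII flox/flox libraries and at 55.4, 52.7 and 38.8 in TβRII-/- cells, where it was not called against untreated. The Ugt2 genes of this stretch, which add glucuronic acid to the same kinds of substrate, had at most 8 counts each. Of 36 tested neighbours of Sult1a1 (chr7:126672865-126690443) 5 were called between untreated genotypes, of 29 of Sult2b1 (chr7:45729981-45759672) 10, and of 4 of Sult1c2 (chr17:53829637-53845958) 1. Over all genes tested 28.0% were called in that comparison, and nothing is read from the neighbours about the members.

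The genes whose log2 CPM followed Sult1d1 most closely over the 12 libraries, of 12272 protein-coding genes, were Eif4h (Pearson r = 0.998), Ankrd13a (0.993), Arl4d (0.993), Kctd10 (0.991) and Eif3l (0.991). Those closest to Sult1a1 were Ddah1 (0.982), Ppp2r5d (0.980), Nfil3 (0.979), Rps2 (0.977) and Eif4ebp1 (0.974). These correlations are descriptions over libraries that share 4 groups, and the genes differed far less than Sult1d1 itself: Eif4h ranged from a mean of 4506 to 7746 normalized counts. Between the members r was 0.911 for Sult1c2 and Sult2b1, 0.807 for Sult1d1 and Sult2b1, 0.531 for Sult1d1 and Sult1c2, 0.459 for Sult1a1 and Sult1d1, -0.121 for Sult1a1 and Sult2b1 and -0.481 for Sult1a1 and Sult1c2.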

How the data were processed

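RNA was measured in 12 libraries of PT cells, 3 in each of 4 groups taken from the sample labels. The authors trimmed reads with fastp, aligned them to GRCm38.p6 by STAR using the GENCODE M23 annotation, and ran featureCounts. What they deposited are raw whole-number counts for each transcript, not normalized. Libraries were made with a stranded mRNA kit. The versions of the aligner and counter and the strand setting of the counting are not given in the sources used here. The tests had been planned for counts per gene. GENCODE M39 held the identifiers of 104820 of the 106332 transcripts, and the others held 1.22% to 1.28% of counts and were left out. The transcript with the highest total stood for each gene.

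The test was that of edgeR 4.0.16 in R 4.3.3 (TMM, filterByExpr, glmQLFit and glmQLFTest on a mean per group, with all 12 libraries in 1 fit). Calls required a p under 0.05 after Benjamini-Hochberg adjustment over 12971 genes and a fold change of at least 1.5. Normalized counts are counts scaled to the mean effective library size of 17351835. Counting intervals are exact, at 95%. Libraries of a group differed by more than sampling noise (chi-square per gene 3.64 to 12.7). The members and gene lists were chosen with earlier results of these data known. Named genes are all members, at most 4 called genes per list and comparison with the largest change and a mean of at least 10 counts, and the 5 genes most like Sult1a1 and Sult1d1. Some genes that meet this rule are left out of the text. Other genes, such as those on the lists that were not called, Tgfbr2, Sgf29, Lmtk3 and Csn3, were named because a value touched a result. Promoters were those of RefSeq on GRCm38.p6, and transcript sequences those of GENCODE M39. The steps were tested on simulated data. Tables were joined with Python 3.11.15 and pandas 2.3.3. Alternatives were DESeq2 1.42.0, other size factors, filters, thresholds and gene sums, a replicate block, only the groups compared, and each library left out.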

Additional observations from a re-analysis of the deposited data

Results flagged for a closer look

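Groups of 3 libraries are too small for a test of single outlying libraries. Among the members and the other named genes, Suox, sulfite oxidase, was the gene whose libraries all moved one way between genotypes untreated and all the opposite way with H2O2. Its log2 change in TβRII-/- against TβRII flox/flox PT cells was 0.163 untreated and -0.201 with H2O2, with no overlap between genotypes in either condition. The difference between these changes was not tested.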

How the results depend on the processing

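The calls of Sult1d1, Sult1c2 and Sult2b1 between genotypes kept their direction and their side of the threshold under every alternative that tested them. The alternatives shared most of their data, and Sult2b1 had passed the filter through the TβRII-/- libraries. Sult1d1 was among the genes for which the members were chosen. That these calls persisted is therefore given for the record only. Sult1a1, not called between untreated genotypes, was called in 3 of 20 alternatives, with adjusted p from 0.0380 to 0.228 by edgeR. These p-values are not independent of the choice of the members. With at least 10 counts asked of every library, Sult1c2 was the one member left to test and 1 member was called in each genotype comparison. With no limit on fold, 8387 and 8617 genes were called between genotypes, untreated and with H2O2, and 5392 and 5135 with H2O2 in TβRII flox/flox and TβRII-/- PT cells, with 36, 42, 26 and 18 on the sulfation lists. Leaving out 1 library at a time gave 3 to 5 members called between untreated genotypes, 5 without replicate 1 of H2O2-treated TβRII-/- cells, when both Sult1b1 and Sult1a1 were called. It gave 4 to 11 sulfation genes with H2O2 in TβRII flox/flox cells, the 4 without replicate 3 of the untreated ones, and 2 to 5 in TβRII-/- cells, the 5 without replicate 2 of the untreated or replicate 3 of the treated ones. The H2O2 change of Sult1d1 in TβRII flox/flox cells ran from -7.61 to -6.15 (log2), at -7.61 without treated replicate 1, which held 5 of the group's 7 counts, and that of Sult1a1 in TβRII-/- cells from -7.38 to -3.74, at -7.38 without treated replicate 1, which held all 3. In all, 497 of 516 values stayed on the same side or within the same range as the main value. Many of these settings shared nearly all their data, and a result that was never called counted as unchanged whatever its size. Sult1a1 between genotypes with H2O2 was such a result, with log2 changes from -3.24 to 0.39. The tally is therefore not a measure of how firm the results are.

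Deviations from the group means correlated from -0.23 to 0.112 between same-numbered libraries and from -0.253 to 0.28 between differently numbered ones. The numbers thus showed no sign of pairing, but with 3 libraries in a group this check cannot exclude it. With the replicate number as a block, 3 members were called in each genotype comparison and 3623, 3969, 1047 and 1069 genes in the 4 comparisons, and no call of a member changed. Depth limits Sult1a1 with H2O2, Sult1b1 and the other low members.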
